A study of Mus musculus with 8 samples.

Results

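The 9 genes described here are Mbd1, Mbd2, Mbd3 and Mbd4, which encode proteins with a methyl-CpG binding domain, and Mta1, Mta2, Mta3, Gatad2a and Gatad2b, which encode subunits of the nucleosome remodelling and deacetylase complex (NuRD). They were taken by gene symbol from a table of 49641 gene entries, and each of the 9 has 1 entry. RNA sequencing of mouse embryonic stem cells gave 8 libraries, with 2 in each of 4 groups. The first group is Dgcr8 KO cells given siRNAs that target Mbnl1 and Mbnl2 (siMbnl1/2), the second is Dgcr8 KO cells given miR-294, the third is mock-transfected Dgcr8 KO cells and the fourth is mock-transfected WT cells. The siMbnl1/2 and miR-294 groups therefore carry the Dgcr8 deletion too, and only the WT group does not.

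All samples are labelled as the V6.5 line on the 129/C57BL/6 strain background. The columns of the table are named V65 for WT and ES1 for Dgcr8 KO, so the deletion and a difference between lines cannot be told apart in Dgcr8 KO minus WT. Cells grew with serum and LIF on gelatin or on irradiated mouse embryonic fibroblasts, and which of these each sample had is not given. Mimic or siRNA was added at 50 nM, 16 hours after plating. Nothing in the labels says that the libraries of a group came from separate cultures, so the p-values measure the spread between these libraries, which may be technical.

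Methyl-CpG binding domain proteins were identified as readers of methylated DNA. Mbd1 and Mbd2 bind methylated CpG and repress transcription, Mbd4 is a DNA glycosylase that removes thymine or uracil mispaired with guanine at CpG sites, and mammalian Mbd3 has lost most of the affinity for methylated CpG. NuRD joins a remodelling ATPase (Chd3, Chd4 or Chd5) to the histone deacetylases Hdac1 and Hdac2. Mta proteins hold the deacetylases and the histone chaperones Rbbp4 and Rbbp7, Gatad2 proteins bridge to the remodelling ATPase, and Mbd2 or Mbd3, but not both, sits in 1 complex. In mouse embryonic stem cells NuRD with Mbd3 is needed for an ordered exit from self-renewal. Dgcr8 works with the nuclease Drosha to make canonical microRNAs, miR-294 belongs to the family most abundant in these cells, and Mbnl1 and Mbnl2 are splicing regulators.

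miR-294 is shown beside the 2 members of its cluster that share its seed, because the seed (bases 2 to 8, in capitals) is the stretch searched for in the members' 3′ UTRs. The labels do not say which strand of the hairpin the mimic carried. These are RefSeq 3p sequences (GRCm38.p6, chromosome 7, plus strand), of which miR-294 lies at chr7:3220691-3220712, miR-291a at chr7:3218968-3218989 and miR-295 at chr7:3220815-3220837.
mmu-miR-294-3p: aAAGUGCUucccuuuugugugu
mmu-miR-291a-3p: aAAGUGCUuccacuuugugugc
mmu-miR-295-3p: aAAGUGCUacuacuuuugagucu

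Seed matches were read on the sense strand of each gene's longest GENCODE M21 3′ UTR. The nested motifs were GCACTT (6 letters), AGCACTT and GCACTTA (7 letters each) and AGCACTTA (8 letters). Of the 9 members 4 held the 6-letter match, against 32.8% of 11501 genes searched, and 3 held AGCACTT, against 17.4%. Mbd2 held a single match, of 8 letters, in a 3′ UTR of 480 bases. Of 1194 genes with a 3′ UTR of like length (0.8 to 1.25 times), 5.28% held AGCACTT. Mbd1 held 2 matches in 781 bases, 1 to AGCACTT and 1 to GCACTTA, and 9.68% of 1540 genes of like length held AGCACTT. Gatad2b held 3 matches in 5405 bases, and Gatad2a held 1, of 6 letters, in 2768 bases. At those lengths 80.0% and 57.2% of genes held the 6-letter match, and 54.3% and 31.2% held AGCACTT. For Mbd2 and Mbd1 the 6-letter shares at like length were 13.5% and 21.8%. Mbd3, Mbd4, Mta1, Mta2 and Mta3 held none in the window searched. Such a match describes letters in an annotated sequence and was not tested as a site of binding. The matches of the Gatad2 pair are printed, with the match in capitals and 9 bases on either side (mm10), and those of Mbd1 and Mbd2 are not printed here. In Gatad2b they lie on the plus strand at chr3:90359907-90359932, chr3:90358585-90358609 and chr3:90359675-90359698, in the order printed, and the Gatad2a match lies on the minus strand at chr8:69909292-69909315.
Gatad2b, 8 letters: aatgtattgAGCACTTAataaaggag
Gatad2b, 7 letters: atgttgagtGCACTTAacctgagtt
Gatad2b, 6 letters: agtaagaagGCACTTttaaaatta
Gatad2a, 6 letters: atacacagtGCACTTgggcaggct

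Values are FPKM, which count fragments per kilobase of a transcript and per total fragments mapped, so levels can be set side by side between genes. The steps between the lowest values put the depth at an estimated 28500000 to 36800000 fragments per library. Taking the shortest coding transcript of each gene, the thinnest member value rested on an estimated 152 fragments, for Mbd4. With the longest transcript the thinnest was Mbd1 at 415, and Mbd4 had 825. Changes are differences of mean log2(FPKM + 1) with their SE from limma, fitted over all 8 libraries and 12786 entries with a mean FPKM of at least 1. All 9 members passed that filter. Calls needed a two-sided p, adjusted by Benjamini-Hochberg over all genes tested, under 0.05. The embryonic stem cell markers were present in every library (7 of 7, summed level 5344 to 7332 FPKM, most of it Dppa5a). They did not stay level between groups. In Dgcr8 KO against WT 3 were called higher (log2 change of Nanog 0.87, Sox2 1.03, Dppa5a 0.35) and 2 lower (Pou5f1 −0.49, Zfp42 −0.51). With miR-294 against Dgcr8 KO 3 were higher and 3 lower. The part of these markers in the members' results was not tested. Of 10 fibroblast markers, 9 were under 1 FPKM in every library. The other, Thy1, averaged 1.67 FPKM with siMbnl1/2, 3.70 with miR-294, 1.59 in Dgcr8 KO and 2.33 in WT. The summed level of all 10 was 2.64 and 2.87 FPKM with siMbnl1/2 and 4.67 and 4.36 with miR-294. It was 2.33 and 2.09 FPKM in Dgcr8 KO and 4.28 and 3.24 in WT. Most of this sum was Thy1 in every library, and its part in the members' results was not tested. Gata6 and Sox17, markers of endoderm, averaged 10.3 and 8.42 FPKM in WT and were under 1 FPKM in each library of the other groups. The neural marker Pax6 averaged 5.76 FPKM with siMbnl1/2, 3.97 with miR-294, 9.71 in Dgcr8 KO and 1.57 in WT. Sox1, another neural marker, averaged 5.25 FPKM with siMbnl1/2, 3.34 with miR-294, 8.49 in Dgcr8 KO and 7.58 in WT, so it was low with miR-294 where Pax6 was low in WT. The part of these lineage markers in the members' results was not tested either, and fewer cells of a type and less RNA per cell cannot be told apart in bulk libraries.

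The targeted genes were read first. Dgcr8 had 7.89 and 8.50 FPKM in Dgcr8 KO, against 22.9 and 21.9 FPKM in WT (log2 change −1.35, limma adjusted p = 3.47e-05), and lay between 6.58 and 7.90 FPKM in the siMbnl1/2 and miR-294 libraries. Mbnl2 averaged 12.8 ± 2.23 FPKM with siMbnl1/2 and 26.6 ± 2.79 FPKM in Dgcr8 KO (SD, n = 2 each; log2 change −1.01, limma adjusted p = 0.0191), a call lost when only the libraries of that comparison were fitted (adjusted p = 0.137) and under other alternatives. Mbnl1 averaged 6.80 ± 0.0621 FPKM with siMbnl1/2 and 8.71 ± 1.00 FPKM in Dgcr8 KO and was not called (log2 change −0.31, limma adjusted p = 0.158).

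**Figure D1:**
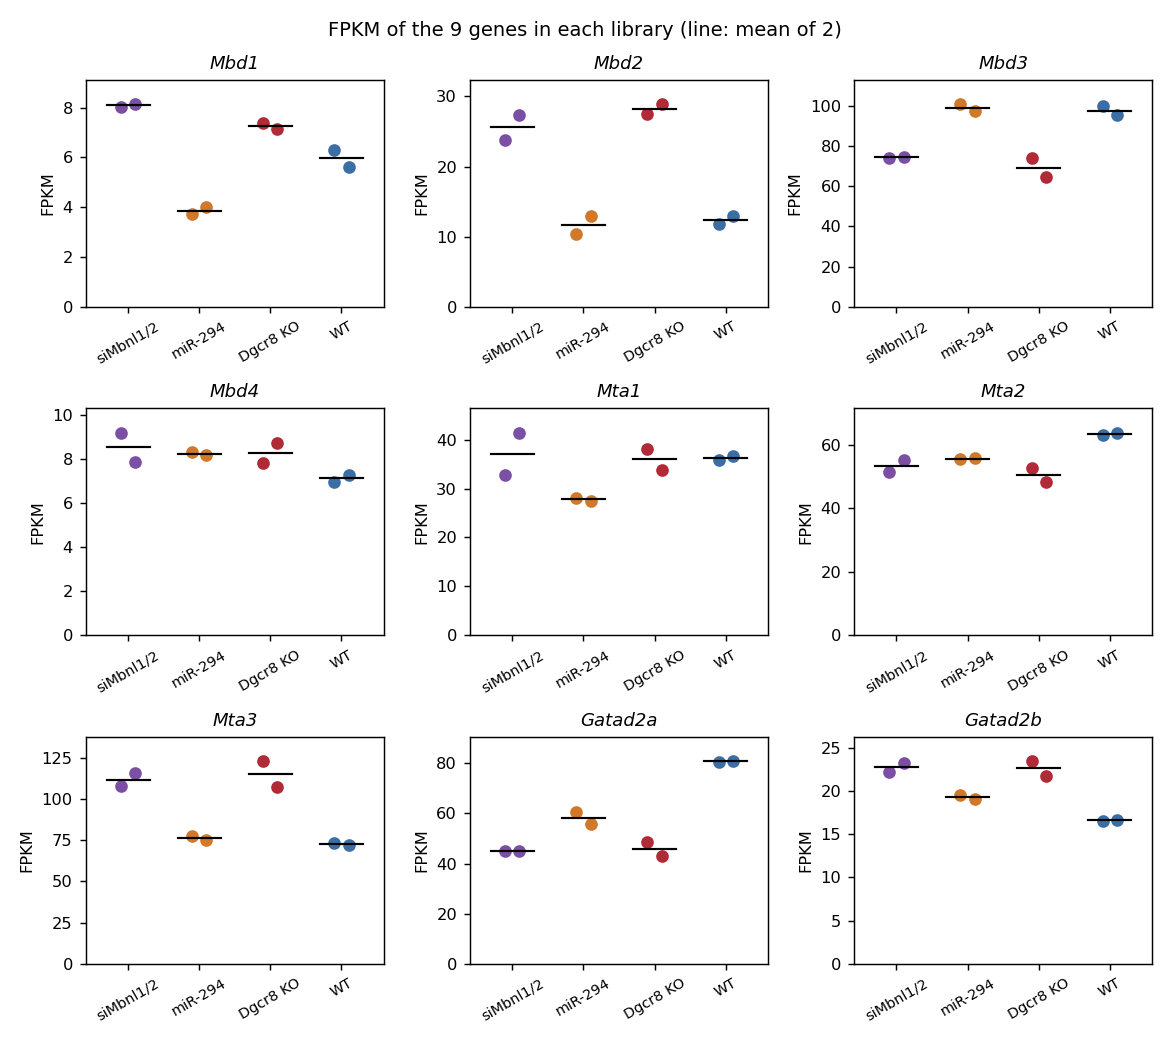
FPKM of each member (y axis, 1 panel per gene) in every library, with groups along the x axis as siMbnl1/2, miR-294, Dgcr8 KO and WT. Points are libraries and lines are group means. Mbd2 sat at 23.8 to 28.9 FPKM in siMbnl1/2 and Dgcr8 KO and at 10.3 to 13.0 FPKM in miR-294 and WT.

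Among the 4 groups, 8 of the 9 members differed (limma's moderated F, adjusted p under 0.05), beside 70.0% of all genes tested. Mbd4 was the exception, with an adjusted p of 0.213. Mbd2 had the highest F of the members at 56.8 (adjusted p = 0.00014), and Gatad2a followed at 48.8. Mbd3 and Mta3 were the most abundant pair in siMbnl1/2, miR-294 and Dgcr8 KO, and Mbd3 and Gatad2a in WT. Mbd1 was the lowest in the miR-294, Dgcr8 KO and WT libraries, and with siMbnl1/2 its range overlapped that of Mbd4. In Dgcr8 KO and with miR-294 the libraries of Mta2 and Gatad2a overlapped, so their order there is not set. Other neighbours in the order did not overlap in their libraries. In WT the order of mean FPKM ran Mbd3, Gatad2a, Mta3, Mta2, Mta1, Gatad2b, Mbd2, Mbd4, Mbd1. In Dgcr8 KO it ran Mta3, Mbd3, Mta2, Gatad2a, Mta1, Mbd2, Gatad2b, Mbd4, Mbd1.

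Dgcr8 KO was set against WT to ask what changed without canonical microRNAs. Mbd2, Mta3, Gatad2b and Mbd1 were higher, and Gatad2a, Mbd3 and Mta2 were lower, while Mbd4 and Mta1 were not called. These 7 of 9 stand beside 59.8% of all genes tested that were called in that comparison, with 29.6% higher and 30.1% lower. The groups did not overlap for 8 members, beside 81.8% of all genes tested. The median change of the members was 0.19 and that of all genes tested 0.00 on the log2 scale. The miR-294 group was set against mock-transfected Dgcr8 KO to ask what changed when 1 microRNA was added to cells that lack the others. There Mbd3 and Gatad2a were higher and Mbd2, Mbd1, Mta3, Mta1 and Gatad2b were lower. That is again 7 of 9, beside 52.2% of all genes tested (22.9% higher, 29.2% lower). The groups did not overlap for 8 members, beside 78.5% of all genes tested. The median change was −0.22 for the members and −0.06 for all genes tested. Both comparisons use the Dgcr8 KO libraries, so opposite signs in them are not independent of each other. Leaving out replicate 1 of miR-294 brought the second count to 4 of 9, and median-of-ratios scaling split it as 3 higher and 4 lower.

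**Figure D2:**
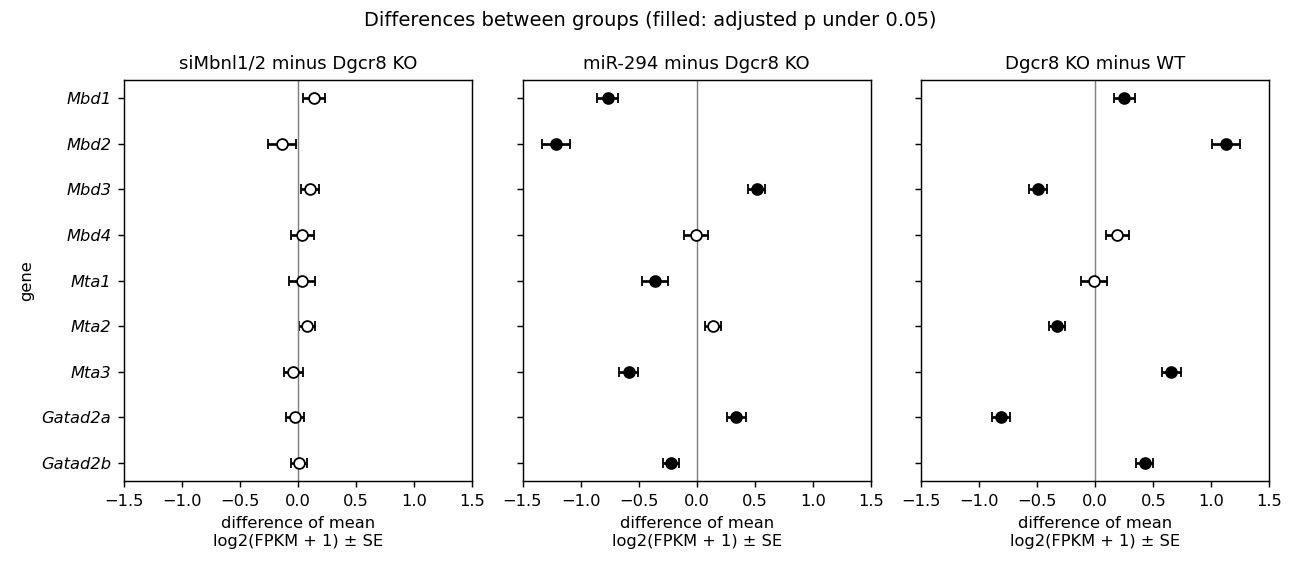
Change of each member (y axis) on the log2(FPKM + 1) scale (x axis) in siMbnl1/2 minus Dgcr8 KO, miR-294 minus Dgcr8 KO and Dgcr8 KO minus WT. Bars are the SE of the limma fit, and filled points passed an adjusted p of 0.05. Mbd2 lay at 1.13 in Dgcr8 KO minus WT and at −1.21 in miR-294 minus Dgcr8 KO, and every member lay within 0.14 of 0 in siMbnl1/2 minus Dgcr8 KO.

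Mbd2 encodes the methyl-CpG binding subunit of NuRD (mm10, chromosome 18, 70568189 to 70626131, plus strand; ENSMUSG00000024513.16). It had 23.8 and 27.4 FPKM with siMbnl1/2, 10.3 and 13.0 FPKM with miR-294, 27.4 and 28.9 FPKM in Dgcr8 KO and 11.7 and 12.9 FPKM in WT. The siMbnl1/2 and Dgcr8 KO libraries were high, the miR-294 and WT libraries were low, and no library of the high pair of groups overlapped the low pair. In Dgcr8 KO, the mean FPKM of Mbd2 rose to 2.28 times that in WT (log2 change 1.13 ± 0.12 SE, limma adjusted p = 0.000164). With miR-294 it fell to 0.414 times that in Dgcr8 KO (log2 change −1.21 ± 0.12, limma adjusted p = 0.000216). Mbd2 and Gatad2b each held an 8-letter seed match, in 3′ UTRs of 480 and 5405 bases, and the part of these matches in the changes was not tested. Over the 8 libraries, the tested genes whose log2 pattern was most like that of Mbd2 were Samhd1 (Pearson r 0.996, Spearman rho 0.952), Sbf2 (r 0.995, rho 0.905) and Gcnt2 (r 0.992, rho 0.905). These were picked as the highest among all genes tested, and the points of a group share a treatment.

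Mbd3 encodes the alternative subunit in the same place of the complex (mm10, chromosome 10, 80392539 to 80399550, minus strand; ENSMUSG00000035478.14). It had 74.2 and 74.4 FPKM with siMbnl1/2, 101 and 97.4 FPKM with miR-294, 73.9 and 64.5 FPKM in Dgcr8 KO and 99.8 and 95.2 FPKM in WT. Here the miR-294 and WT libraries were the high ones, again without overlap. In Dgcr8 KO, Mbd3 fell to 0.71 times its mean FPKM in WT (log2 change −0.49 ± 0.0766, limma adjusted p = 0.00106). Quantile normalization kept that call and shrank the change to −0.21. With miR-294, Mbd3 rose to 1.43 times its mean FPKM in Dgcr8 KO (log2 change 0.52 ± 0.0766, limma adjusted p = 0.0012).

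Since FPKM is per length, the paralogs can be set as shares of their sum. Mbd2 made up 25.6% ± 1.87 of the summed FPKM of Mbd2 and Mbd3 with siMbnl1/2, 10.5% ± 1.76 with miR-294, 29.0% ± 2.75 in Dgcr8 KO and 11.2% ± 1.01 in WT (SD, n = 2 each). Mbd3 stayed the more abundant of the pair in all 8 libraries. The sum of both averaged 110.8 FPKM with miR-294, 97.4 FPKM in Dgcr8 KO and 109.9 FPKM in WT, so the share moved more than the sum. The FPKM of all entries also differed in total. It was 542209 and 549479 with miR-294, 502310 and 473746 in Dgcr8 KO and 571508 and 564280 in WT. The sum of the pair was not scaled to these totals. These shares describe RNA, not the proteins assembled into NuRD, and were not tested.

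**Figure D3:**
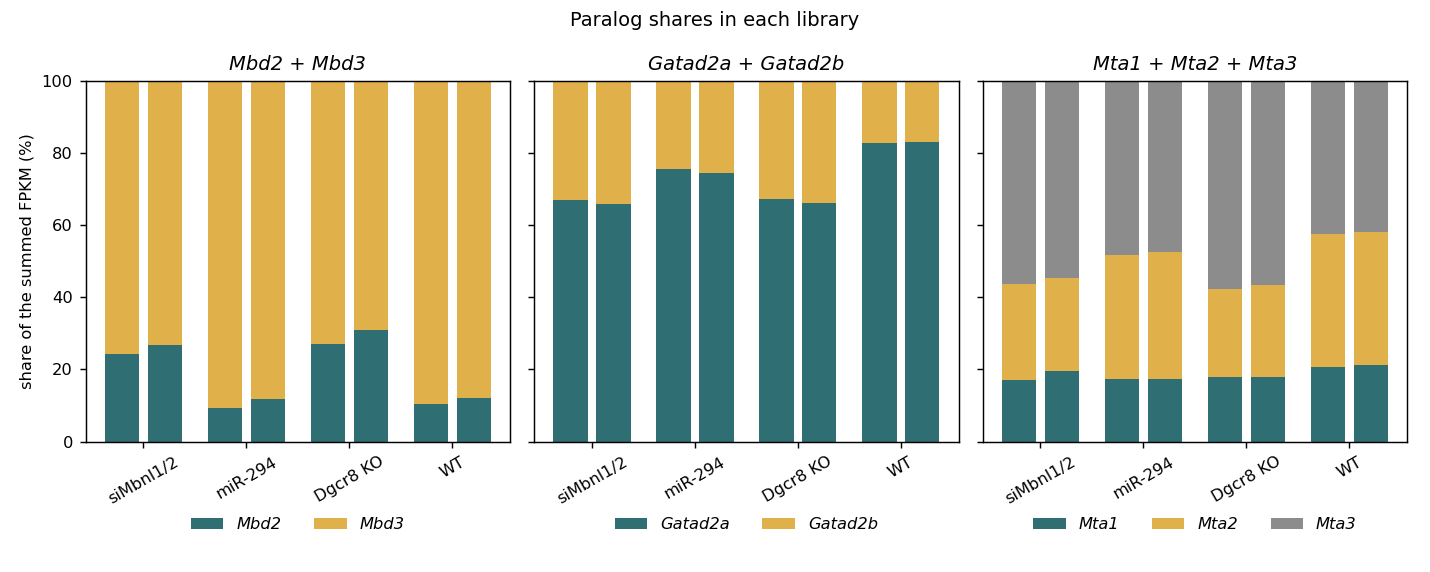
Share of each paralog in the summed FPKM of its pair or trio (y axis, percent), as 1 stacked bar per library, by group (x axis). The share of Mbd2 in Mbd2 and Mbd3 was 10.5% with miR-294 and 29.0% in Dgcr8 KO, and the share of Gatad2b in its pair was 33.2% in Dgcr8 KO and 17.1% in WT.

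Of the other methyl-CpG readers, Mbd1 changed with miR-294 and Mbd4 was called in no comparison fitted over all 8 libraries. Mbd1, which carries a methyl-CpG binding domain and zinc fingers that bind CpG (mm10, chromosome 18, 74268272 to 74282685, plus strand; ENSMUSG00000024561.8), had 8.04 and 8.15 FPKM with siMbnl1/2, 3.72 and 3.99 FPKM with miR-294, 7.38 and 7.14 FPKM in Dgcr8 KO and 6.29 and 5.63 FPKM in WT. The miR-294 libraries were the lowest of the 8. With miR-294 the mean FPKM of Mbd1 fell to 0.531 times that in Dgcr8 KO (log2 change −0.77 ± 0.0908, limma adjusted p = 0.000427). Its increase in Dgcr8 KO over WT was near the threshold (log2 change 0.25 ± 0.0908, limma adjusted p = 0.0458). That call was lost under quantile normalization (log2 change 0.06, adjusted p = 0.559), without replicate 2 of WT (adjusted p = 0.269) and under most other alternatives.

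Mbd4, the mismatch glycosylase (mm10, chromosome 6, 115840697 to 115853371, minus strand; ENSMUSG00000030322.12), had 9.21 and 7.88 FPKM with siMbnl1/2, 8.32 and 8.19 FPKM with miR-294, 7.84 and 8.75 FPKM in Dgcr8 KO and 6.96 and 7.30 FPKM in WT. WT was the lowest group, and the other groups overlapped. The fit over all 8 libraries called it in no comparison (Dgcr8 KO minus WT 0.19 ± 0.10, limma adjusted p = 0.135). Without replicate 2 of siMbnl1/2 it was called higher with siMbnl1/2 than in WT (0.33, adjusted p = 0.0269). Of its 5280 exonic bases, 264 overlap the antisense gene Gm44206, and whether the counting used strand is not given in the sources used here, so reads of the pair may be mixed there.

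The Mta trio encodes the scaffolds that hold the deacetylases. Mta3 (mm10, chromosome 17, 83706163 to 83821516, plus strand; ENSMUSG00000055817.17) was the most abundant of them, with 108 and 116 FPKM with siMbnl1/2, 77.7 and 75.1 FPKM with miR-294, 123 and 107 FPKM in Dgcr8 KO and 73.1 and 72.2 FPKM in WT. As for Mbd2, the siMbnl1/2 and Dgcr8 KO libraries were all above those of miR-294 and WT. Mta3 rose to 1.59 times its WT mean FPKM in Dgcr8 KO (log2 change 0.66 ± 0.0794, limma adjusted p = 0.000301) and fell to 0.662 times its Dgcr8 KO mean with miR-294 (log2 change −0.59 ± 0.0794, limma adjusted p = 0.000777). It held no seed match in its 3′ UTR, and the part of seed matches in the changes was not tested.

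Mta2 (mm10, chromosome 19, 8941875 to 8952303, plus strand; ENSMUSG00000071646.9) had 51.4 and 55.2 FPKM with siMbnl1/2, 55.5 and 55.9 FPKM with miR-294, 52.7 and 48.3 FPKM in Dgcr8 KO and 63.2 and 63.9 FPKM in WT. WT stood above the other groups, which lay close together. Mta2 fell to 0.794 times its WT mean FPKM in Dgcr8 KO (log2 change −0.33 ± 0.0699, limma adjusted p = 0.00482), a call that quantile normalization ended (log2 change −0.15, adjusted p = 0.0677). It was not called with miR-294 against Dgcr8 KO (log2 change 0.14 ± 0.0699, limma adjusted p = 0.128), but was under median-of-ratios scaling (0.20, adjusted p = 0.0235).

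Mta1 (mm10, chromosome 12, 113098278 to 113137206, plus strand; ENSMUSG00000021144.14) had 32.8 and 41.5 FPKM with siMbnl1/2, 28.1 and 27.5 FPKM with miR-294, 38.1 and 33.9 FPKM in Dgcr8 KO and 35.9 and 36.7 FPKM in WT. The miR-294 libraries were the lowest, and the other groups overlapped. Mta1 did not pass the test in Dgcr8 KO against WT (log2 change −0.01 ± 0.112, limma adjusted p = 0.923) and fell with miR-294 against Dgcr8 KO (log2 change −0.36 ± 0.112, limma adjusted p = 0.0299). The second call was lost without the filter on low values (adjusted p = 0.0726) and without any of 5 libraries, where the highest adjusted p was 0.143. Within the trio, Mta3 made up 55.4% of the summed FPKM with siMbnl1/2, 47.8% with miR-294, 57.1% in Dgcr8 KO and 42.1% in WT. Mta2 made up 26.3% with siMbnl1/2, 34.8% with miR-294, 25.0% in Dgcr8 KO and 36.8% in WT.

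Gatad2a and Gatad2b encode the paralogs p66alpha and p66beta, of which a complex uses either. Gatad2a (mm10, chromosome 8, 69907076 to 69996384, minus strand; ENSMUSG00000036180.15) had 44.9 and 45.0 FPKM with siMbnl1/2, 60.5 and 55.8 FPKM with miR-294, 48.7 and 42.8 FPKM in Dgcr8 KO and 80.7 and 81.0 FPKM in WT. WT was highest, miR-294 lay between, and siMbnl1/2 and Dgcr8 KO overlapped at the bottom. In Dgcr8 KO it fell to 0.566 times its WT mean FPKM (log2 change −0.81 ± 0.0789, limma adjusted p = 0.000109). With miR-294 it rose to 1.27 times its Dgcr8 KO mean (log2 change 0.34 ± 0.0789, limma adjusted p = 0.00862), a call lost without replicate 1 of miR-294 (adjusted p = 0.074).

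Gatad2b (mm10, chromosome 3, 90293178 to 90363407, plus strand; ENSMUSG00000042390.9) had 22.2 and 23.3 FPKM with siMbnl1/2, 19.5 and 19.1 FPKM with miR-294, 23.5 and 21.8 FPKM in Dgcr8 KO and 16.6 in each WT library. WT was lowest, miR-294 lay between and the other groups overlapped. It rose to 1.36 times its WT mean FPKM in Dgcr8 KO (log2 change 0.42 ± 0.0716, limma adjusted p = 0.00157). With miR-294 it fell against Dgcr8 KO (log2 change −0.22 ± 0.0716, limma adjusted p = 0.0341), and that call was lost with median-of-ratios scaling (adjusted p = 0.0651), quantile normalization (0.0828) and in most left-out libraries (up to 0.164). Gatad2b made up 33.6% of the summed FPKM of the pair with siMbnl1/2, 24.9% with miR-294, 33.2% in Dgcr8 KO and 17.1% in WT. The sum itself was 67.7 FPKM with siMbnl1/2, 77.5 FPKM with miR-294, 68.4 FPKM in Dgcr8 KO and 97.5 FPKM in WT. Of 11443 exonic bases of Gatad2b, 247 overlap the antisense gene 4930537H20Rik.

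The siMbnl1/2 group was set against Dgcr8 KO to ask what changed when siRNAs against the splicing regulators were added to the same cells. Limma called 0 of the 9 members there, beside 1.11% of all genes tested (0.868% higher, 0.242% lower). The groups did not overlap for 3 members, beside 38.7% of all genes tested. None had an unadjusted p under 0.05, beside 2355 of 12786 genes tested, and the smallest was 0.17. The alternatives that kept 2 libraries in each group compared also called 0. The change furthest from 0 was that of Mbd1 (log2 change 0.14 ± 0.0908, limma adjusted p = 0.486). Mbd2 differed by −0.14 ± 0.12 (limma adjusted p = 0.615) and Mbd3 by 0.11 ± 0.0766 (limma adjusted p = 0.536). The SE of the members ran from 0.0699 to 0.12. Changes well above these SE also went uncalled in this comparison, such as Pax6 at −0.66 ± 0.134 (limma adjusted p = 0.0611) and Sox1 at −0.61 ± 0.117 (0.0562). The 0 calls therefore do not show that the members were unchanged. Mbnl2 averaged 12.8 FPKM with siMbnl1/2 against 26.6 FPKM in Dgcr8 KO, and Mbnl1 was not called lower. A fuller loss of both was not tested, and FPKM per gene does not show splicing. The siMbnl1/2 and Dgcr8 KO groups also had the wider spread between libraries, with a median SD over all genes of 0.121 with siMbnl1/2 and 0.102 in Dgcr8 KO, against 0.0487 with miR-294 and 0.0462 in WT on the log2 scale.

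The siMbnl1/2 and miR-294 groups were compared directly. Mbd1 (log2 change 0.91 ± 0.0908, limma adjusted p = 0.000201), Mbd2 (1.08 ± 0.12, 0.000311), Mta3 (0.55 ± 0.0794, 0.00102), Mta1 (0.40 ± 0.112, 0.0198) and Gatad2b (0.23 ± 0.0716, 0.0295) were higher with siMbnl1/2. Mbd3 (−0.41 ± 0.0766, 0.00324) and Gatad2a (−0.37 ± 0.0789, 0.00625) were lower. These 7 of 9 stand beside 54.0% of all genes tested (33.0% higher, 21.0% lower), and the groups did not overlap for 8 members, beside 76.7%. The median of all genes tested was 0.10 there and moved to −0.02 under quantile normalization, so changes of the members are read against that shift. Under that scaling Gatad2b was no longer called (log2 change 0.13, adjusted p = 0.129), and median-of-ratios scaling gave 4 higher and 3 lower members. Gatad2b was also lost under that second scaling (0.12, adjusted p = 0.159), without the filter (0.0515), with only the libraries compared (0.0669) and without any of 5 libraries (up to 0.149). The calls of Mta1 and Gatad2a also depended on single libraries: without replicate 2 of siMbnl1/2 Mta1 moved to 0.23 (adjusted p = 0.0633), and without replicate 1 of miR-294 Gatad2a had an adjusted p of 0.0575.

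Set against WT, the miR-294 cells still lack every other canonical microRNA. Gatad2a (log2 change −0.47 ± 0.0789, limma adjusted p = 0.00531), Mbd1 (−0.52 ± 0.0908, 0.0062) and Mta1 (−0.37 ± 0.112, 0.0457) were lower, and no member was called higher in the fit over all 8 libraries. Gatad2b was called higher under median-of-ratios scaling (0.27, adjusted p = 0.0206), quantile normalization (0.25, 0.0295), with only the libraries compared (0.0156), with libraries weighted by group spread (0.00593) and without either siMbnl1/2 library (0.0497 and 0.0495). Mbd4 was called higher (0.0484 and 0.0316) and Mta2 lower (0.00701 and 0.0053) with only the libraries compared and with those weights. These 3 of 9 stand beside 26.5% of all genes tested (11.8% higher, 14.7% lower), and the groups did not overlap for 7 members, beside 76.7%. Mbd2, Mbd3 and Mta3 were not called and differed by −0.08 ± 0.12, 0.02 ± 0.0766 and 0.07 ± 0.0794. With errors of that size, these levels are not shown to be equal in miR-294 and WT. The count of 3 became 6 when only the libraries of the comparison were fitted, and 1 to 4 when a library was left out. Without replicate 2 of miR-294 Gatad2a was lost (adjusted p = 0.0544), without replicate 1 of miR-294 or of WT Mbd1 was lost (0.0595 and 0.0696), and Mta1 was lost in most alternatives (up to 0.185).

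In siMbnl1/2 cells against WT 7 of 9 members were called, beside 60.5% of all genes tested (32.8% higher, 27.7% lower), and the groups did not overlap for 8 members, beside 80.4%. This comparison shares its WT libraries with Dgcr8 KO minus WT. Mbd2 (0.99 ± 0.12, limma adjusted p = 0.000294), Mta3 (0.62 ± 0.0794, 0.000403), Gatad2b (0.43 ± 0.0716, 0.00143) and Mbd1 (0.39 ± 0.0908, 0.00757) were higher. Gatad2a (−0.83 ± 0.0789, 9.19e-05), Mbd3 (−0.39 ± 0.0766, 0.00341) and Mta2 (−0.25 ± 0.0699, 0.0157) were lower. Quantile normalization ended the calls of Mbd1 (adjusted p = 0.202), Mbd3 (0.0997) and Mta2 (0.187), which left 3 higher and 1 lower. Mbd1 was also lost without replicate 2 of WT (0.0733), and Mta2 without either WT library or replicate 1 of siMbnl1/2 (up to 0.0911).

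The remaining NuRD subunits form a list of 8 genes, all tested. In Dgcr8 KO against WT 2 were higher and 4 lower, beside 29.6% and 30.1% of all genes tested. Their median change was −0.24, and quantile normalization turned the counts to 3 higher and 1 lower. With miR-294 against Dgcr8 KO 3 were higher and 2 lower, beside 22.9% and 29.2% of all genes tested. The median was 0.12, and quantile normalization turned the counts to 1 higher and 4 lower. With siMbnl1/2 against Dgcr8 KO limma called 0, beside 1.11% of all genes tested. At an unadjusted p under 0.05 there were 0, beside 2355 of 12786 genes tested. Chd3, a remodelling ATPase, had 15.3 and 15.9 FPKM with siMbnl1/2, 7.16 and 6.84 FPKM with miR-294, 16.8 and 14.8 FPKM in Dgcr8 KO and 7.68 and 6.62 FPKM in WT. Like Mbd2 it was high in both siMbnl1/2 and Dgcr8 KO, without overlap with the others. Its change was 1.05 ± 0.0985 in Dgcr8 KO minus WT (limma adjusted p = 9.29e-05) and −1.07 ± 0.0985 in miR-294 minus Dgcr8 KO (limma adjusted p = 0.000161). Hdac2, a deacetylase, averaged 112 ± 7.56 FPKM with siMbnl1/2, 82.8 ± 1.47 FPKM with miR-294, 109 ± 4.97 FPKM in Dgcr8 KO and 78.2 ± 0.0707 FPKM in WT. It rose in Dgcr8 KO over WT (log2 change 0.47, limma adjusted p = 0.000745; 0.73 under quantile normalization) and fell with miR-294 against Dgcr8 KO (−0.39, limma adjusted p = 0.00248). Its paralog Hdac1, at 141 FPKM with siMbnl1/2, 127 with miR-294, 141 in Dgcr8 KO and 138 in WT, was called in neither comparison (0.03, limma adjusted p = 0.618, and −0.14, limma adjusted p = 0.0511). Quantile normalization called it in both (0.37, adjusted p = 0.00104, in Dgcr8 KO minus WT and −0.39, adjusted p = 0.0011, in miR-294 minus Dgcr8 KO), and 4 further alternatives called it in the second (adjusted p 0.0321 to 0.0483).

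Cdk2ap1, a small NuRD-associated protein, moved the other way. It had 17.4 and 19.5 FPKM with siMbnl1/2, 37.6 and 38.0 FPKM with miR-294, 23.7 and 18.9 FPKM in Dgcr8 KO and 46.6 and 39.9 FPKM in WT. Its mean FPKM in Dgcr8 KO was 0.492 times that in WT (log2 change −0.99 ± 0.123, limma adjusted p = 0.000338), and with miR-294 it was 1.77 times that in Dgcr8 KO (0.81 ± 0.123, limma adjusted p = 0.00134). Chd4, the ATPase most abundant in these cells, averaged 85.0 FPKM with siMbnl1/2, 113 FPKM with miR-294, 88.9 FPKM in Dgcr8 KO and 108 FPKM in WT. Its changes were −0.28 in Dgcr8 KO minus WT (limma adjusted p = 0.00317), which became 0.001 under quantile normalization, and 0.35 in miR-294 minus Dgcr8 KO (limma adjusted p = 0.00162), which became 0.15 with an adjusted p of 0.053. Rbbp4 was called lower in Dgcr8 KO than in WT (−0.30, limma adjusted p = 0.0127), but changed sign to 0.04 under quantile normalization and was lost without replicate 2 of WT (adjusted p = 0.0915) or replicate 1 of Dgcr8 KO (0.0615). With miR-294 against Dgcr8 KO Rbbp4 was 0.25 higher (limma adjusted p = 0.0281), and quantile normalization (0.98) and several left-out libraries (up to 0.202) ended that call. Rbbp7 was called lower in Dgcr8 KO than in WT (−0.22, limma adjusted p = 0.0122), changed sign to 0.10 under quantile normalization and was lost without replicate 1 or 2 of WT (0.0524 and 0.105). Chd5 was low, at 2.56 FPKM with miR-294, 1.72 FPKM in Dgcr8 KO and 2.27 FPKM in WT, and was not called (limma adjusted p = 0.214 in miR-294 minus Dgcr8 KO, where leaving out either siMbnl1/2 library gave 0.0396 or 0.0401).

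**Figure D4:**
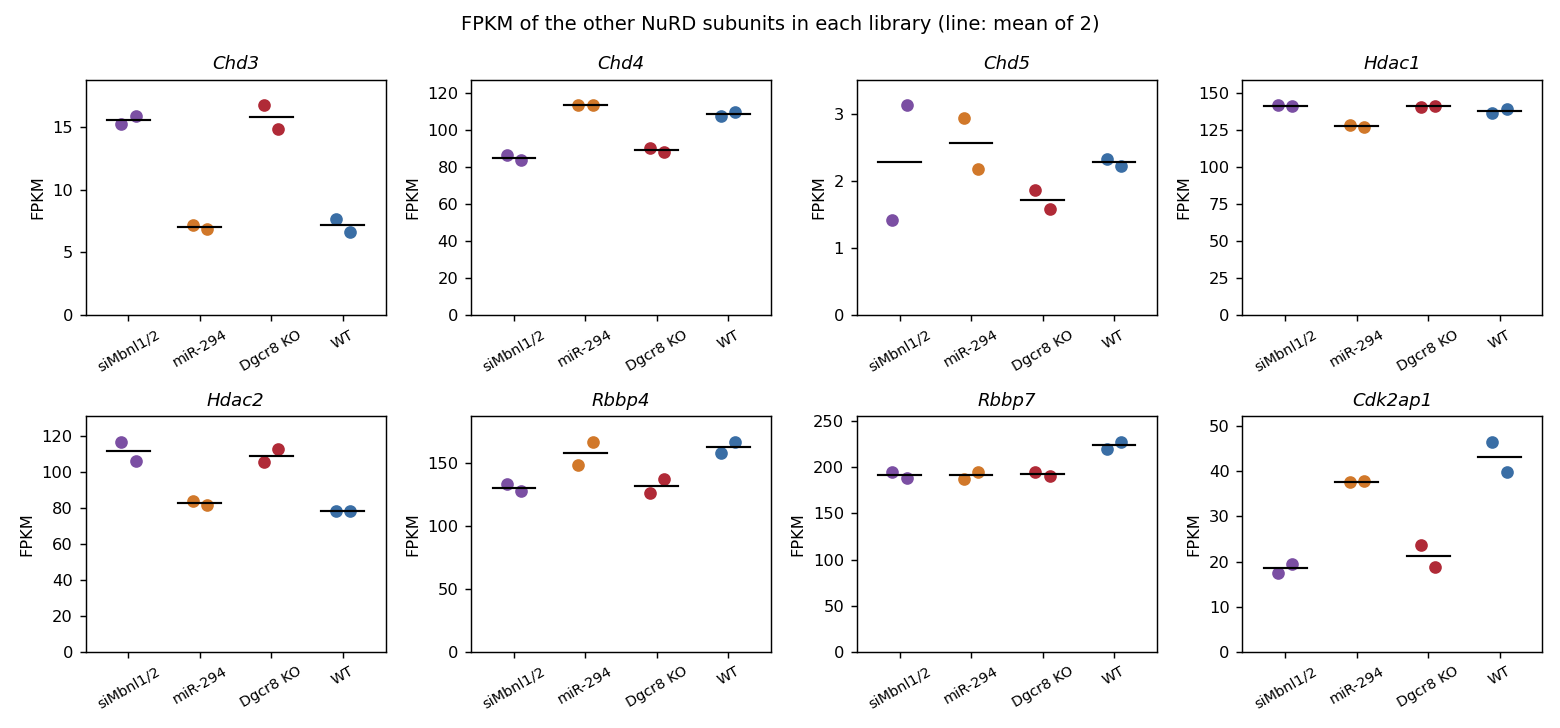
FPKM of the other NuRD subunits (y axis, 1 panel per gene) in every library by group (x axis), with points for libraries and lines for group means. Chd3 sat at 14.8 to 16.8 FPKM in siMbnl1/2 and Dgcr8 KO and at 6.62 to 7.68 FPKM in miR-294 and WT, while Cdk2ap1 was at 17.4 to 23.7 FPKM and 37.6 to 46.6 FPKM in those pairs of groups.

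Further lists set the members beside related genes, each read against the same background shares. Of all genes tested, 29.6% were higher and 30.1% lower in Dgcr8 KO against WT. With miR-294 against Dgcr8 KO these shares were 22.9% and 29.2%. A list of 9 further genes of the methyl-CpG binding domain family held 7 that were tested; Mbd3l1 and Mbd3l2, relatives of Mbd3 that lack the domain, did not pass the filter. In Dgcr8 KO against WT 4 of these were higher and 0 lower, a count that was 1 or 2 under 8 of the alternatives. Baz2b, a bromodomain protein, averaged 35.3 FPKM in Dgcr8 KO and 11.5 FPKM in WT (log2 change 1.54 ± 0.0959, limma adjusted p = 1.76e-05), and at 15.7 FPKM with miR-294 it was below Dgcr8 KO (−1.12 ± 0.0959, limma adjusted p = 0.000125).

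Of 6 readers of methylated DNA that lack such a domain, 2 were higher and 2 lower in Dgcr8 KO against WT, and 1 was higher and 2 lower with miR-294 against Dgcr8 KO. Zbtb38, a zinc finger reader of methylated CpG, averaged 5.92 FPKM with miR-294, 16.1 FPKM in Dgcr8 KO and 3.86 FPKM in WT. Its changes were 1.81 ± 0.10 in Dgcr8 KO minus WT (limma adjusted p = 1.09e-05) and −1.30 ± 0.10 in miR-294 minus Dgcr8 KO (limma adjusted p = 8.71e-05). The related Zbtb4 averaged 0.584 FPKM with miR-294, 3.0 FPKM in Dgcr8 KO and 0.478 FPKM in WT (1.43 in Dgcr8 KO minus WT, limma adjusted p = 0.00172, and −1.32 in miR-294 minus Dgcr8 KO, limma adjusted p = 0.00326). At such low levels the pseudocount matters: with 0.1 in place of 1 these changes were 2.45 and −2.16.

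Proteins that bind NuRD were tested for 8 of 10 genes. In Dgcr8 KO against WT 3 were higher and 4 lower, and with miR-294 against Dgcr8 KO 2 were higher and 3 lower. Without either WT library the first count was 1 higher and 3 lower. Sall4, a zinc finger factor of pluripotent cells that recruits NuRD, averaged 61.9 FPKM with miR-294, 36.5 FPKM in Dgcr8 KO and 58.3 FPKM in WT (−0.66 ± 0.12 in Dgcr8 KO minus WT, limma adjusted p = 0.00233, and 0.75 ± 0.12 in miR-294 minus Dgcr8 KO, limma adjusted p = 0.00173). Its paralog Sall1 averaged 58.9 FPKM in Dgcr8 KO and 36.5 FPKM in WT (0.68 ± 0.0684, limma adjusted p = 0.000131). Zfp296 averaged 42.7 FPKM with miR-294 and 24.0 FPKM in Dgcr8 KO (0.81 ± 0.0976, limma adjusted p = 0.000474).

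Of 14 genes of other deacetylase corepressor complexes, 2 were higher and 4 lower in Dgcr8 KO against WT, and 3 were higher and 3 lower with miR-294 against Dgcr8 KO. Median-of-ratios scaling made the first count 4 higher and 4 lower, and without replicate 2 of miR-294 the second was 2 higher and 1 lower. Tbl1x, of the NCoR complex, averaged 29.2 FPKM in Dgcr8 KO and 20.0 FPKM in WT (0.53, limma adjusted p = 0.000314). Sap30, of the Sin3 complex, averaged 55.6 FPKM in Dgcr8 KO and 78.3 FPKM in WT (−0.49, limma adjusted p = 0.00062; −0.27 under quantile normalization). With miR-294, Rcor2, a CoREST protein, averaged 92.3 FPKM against 58.0 FPKM in Dgcr8 KO (0.67, limma adjusted p = 0.000559), and Brms1, of the Sin3 complex, averaged 23.3 FPKM against 16.2 FPKM in Dgcr8 KO (0.50, limma adjusted p = 0.000961).

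Of 8 base-excision and mismatch genes that work beside Mbd4, 2 were higher and 5 lower in Dgcr8 KO against WT, and 2 were higher and 3 lower with miR-294 against Dgcr8 KO. Without either WT library the first count was 1 higher and 3 lower, and the second fell to 2 or 3 genes under 6 alternatives. Tdg, the other glycosylase that removes thymine opposite guanine, averaged 29.2 FPKM in Dgcr8 KO and 43.9 FPKM in WT (−0.57 ± 0.0678, limma adjusted p = 0.000276). Neil1, a glycosylase of oxidized bases, averaged 6.97 FPKM in Dgcr8 KO and 3.41 FPKM in WT (0.85 ± 0.182, limma adjusted p = 0.00489). With miR-294, the uracil glycosylase Ung averaged 55.0 FPKM against 33.0 FPKM in Dgcr8 KO (0.73 ± 0.0956, limma adjusted p = 0.00069), and Neil3 averaged 1.39 FPKM against 3.68 FPKM in Dgcr8 KO (−0.97 ± 0.162, limma adjusted p = 0.00205). In siMbnl1/2 against Dgcr8 KO, 0 genes of each of these 5 lists were called by limma. At an unadjusted p under 0.05 there were 2 of 8 NuRD partners, 1 of 14 corepressor genes and 3 of 8 repair genes, and 0 in the other lists. These stand beside 2355 of 12786 genes tested at that threshold. Some alternatives called 1 to 3 NuRD partners or 1 methyl-DNA reader.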

How the data were processed

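The authors deposited 1 table of FPKM per gene entry with 1 column per library. Tools named in the submitters' processing notes are STAR 2.5.0 and Cufflinks 2.2.1, with build mm10; the annotation release and the strand setting of the counting are not given in the sources used here. The sample labels give polyA RNA and the design text total RNA; libraries were made by a dUTP protocol per the labels' protocols. Since FPKM is a share of a library, more of the abundant transcripts means lower values elsewhere. Values were analysed as log2(FPKM + 1), which understates changes of low genes. Entries with a mean FPKM of at least 1 (12786 of 49641) were fitted with 4 group means in limma 3.58.1 (R 4.3.3, statmod 1.5.0) with trended, robust moderation. The fit was also run on simulated data, where each gene had the same spread in all groups. The groups here differ in spread, so that run does not show how the p-values behave in them. Depth was estimated from the size of 1 fragment in 977 single-transcript genes of at least 3000 bases, assuming a mean fragment length of 200 bases; the lowest value of 58.4% of them was 1 fragment within 3%. The estimate for replicate 1 of WT ran from 31800000 to 33800000 fragments over lengths of 100 to 300 bases. Gene IDs were matched to GENCODE M21 without their version. The members and lists were chosen with earlier results of these data known. All members, all tested other NuRD subunits, and the 2 most changed called genes of each other list in a comparison with Dgcr8 KO are named, and for the member with the highest F the 3 genes most like it. A gene that this rule names is not reported here. Alternatives were the pseudocount, the filter, median-of-ratios scaling, quantile normalization, fitting only the libraries compared, the replicate block and leaving out each library; weighting libraries by the spread of their group was added after seeing the data.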

Additional observations from a re-analysis of the deposited data

How the results depend on the processing

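The calls of Mbd2, Mbd3 and Mta3 in Dgcr8 KO minus WT and in miR-294 minus Dgcr8 KO, of Gatad2a and Gatad2b in the first and of Mbd1 in the second held under every alternative run. Counts of members called ran, over left-out libraries, from 4 to 7 in miR-294 minus Dgcr8 KO, from 4 to 7 in siMbnl1/2 minus miR-294, from 1 to 4 in miR-294 minus WT and from 5 to 8 in siMbnl1/2 minus WT. The count in miR-294 minus WT was 6 with only the libraries of the comparison and 6 when each library was weighted by how widely its group spread, and that in siMbnl1/2 minus WT was 4 under quantile normalization. With the replicate block the counts were 6 in Dgcr8 KO minus WT, 5 in miR-294 minus Dgcr8 KO, 0 in siMbnl1/2 minus Dgcr8 KO, 6 in siMbnl1/2 minus miR-294, 2 in miR-294 minus WT, 7 in siMbnl1/2 minus WT and 7 over the 4 groups. Calls lost with the block were Mbd1 in Dgcr8 KO minus WT (adjusted p = 0.0753), Mta1 (0.0513) and Gatad2b (0.0614) in miR-294 minus Dgcr8 KO, Gatad2b in siMbnl1/2 minus miR-294 (0.0543) and Mta1 in miR-294 minus WT (0.0785). The deviations of same-numbered libraries correlated between −0.05 and 0.19, so the libraries share only a number. No member that changed sign had been called. Under quantile normalization the changes that turned were, in Dgcr8 KO minus WT, Mta1 (0.119), Chd4 (0.001), Rbbp4 (0.037) and Rbbp7 (0.096); in miR-294 minus Dgcr8 KO, Mbd4 (0.186) and Sap18 (−0.054); in siMbnl1/2 minus Dgcr8 KO, Mbd4 (−0.024) and Gatad2b (−0.023); in siMbnl1/2 minus miR-294, Mbd4 (−0.21) and Mta2 (0.005); and in siMbnl1/2 minus WT, Mbd4 (−0.007). Under median-of-ratios scaling they were Mbd4 (0.048) and Rbbp7 (0.047) in miR-294 minus Dgcr8 KO, Mbd4 (−0.012), Mta1 (−0.015) and Gatad2b (−0.045) in siMbnl1/2 minus Dgcr8 KO, Mbd4 in siMbnl1/2 minus miR-294 (−0.06) and Mta1 in siMbnl1/2 minus WT (−0.023). Over left-out libraries, changes that crossed 0 ran from −0.096 to 0.067 for Mta1 in Dgcr8 KO minus WT and from −0.075 to 0.066 for Mbd4 and −0.04 to 0.016 for Rbbp7 in miR-294 minus Dgcr8 KO. In siMbnl1/2 minus Dgcr8 KO they ran from −0.065 to 0.138 for Mbd4, −0.126 to 0.202 for Mta1, −0.139 to 0.058 for Mta3, −0.114 to 0.067 for Gatad2a and −0.046 to 0.06 for Gatad2b. They ran from −0.06 to 0.142 for Mbd4 in siMbnl1/2 minus miR-294, from −0.236 to 0.069 for Mbd2 and −0.009 to 0.058 for Mbd3 in miR-294 minus WT, and from −0.14 to 0.188 for Mta1 in siMbnl1/2 minus WT. The cause of these shifts was not tested. With 2 libraries per group, a left-out library leaves a group of 1, whose spread is assumed to be that of the others; outliers within a group were not tested.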
